A study of Mus musculus with 47 samples.

Results

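The Iroquois family of the mouse consists of Irx1, Irx2, Irx3, Irx4, Irx5 and Irx6, which were taken by gene symbol and make up 6 of the 38215 genes in a table of RNA-seq read counts. The counts came from cranial neural crest cells, the migratory cells that form most of the facial skeleton, dissected from embryos at 3 stages and collected by fluorescence-activated sorting. The table held 47 libraries in 16 groups. At E8.5 there were 3 wild-type libraries of crest progenitors. At E10.5 the subpopulations FNP, Mx, Md and PA2 were each represented by 3 Ezh2cKO libraries and by wild-type libraries, 3 each for FNP, Md and PA2 and 2 for Mx, and Md also by 3 HoxA2OE libraries. At E11.5 there were 3 Hoxa2TempMut and 3 Control libraries of PA2, and 3 wild-type libraries of each subpopulation. The abbreviations are read here in their usual sense of frontonasal process, maxillary process, mandibular process and second pharyngeal arch. The labels name Ezh2cKO as a conditional knockout of Ezh2, Hoxa2TempMut as a temporal knockout of Hoxa2 and HoxA2OE as an overexpression of Hoxa2. Which Cre line or promoter drove each allele, and which alleles the Control embryos carried, is not given in the sources used here. Replicates are numbered, but nothing says that they came from separate embryos or litters, so the p-values here cover the spread among these libraries, which may be technical.

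Iroquois genes encode homeodomain transcription factors of the TALE class, whose homeodomain carries extra residues in the loop between its first helices. In mammals they lie in a pair of clusters, IrxA with Irx1, Irx2 and Irx4 and IrxB with Irx3, Irx5 and Irx6. Members at the same position of the clusters are described as most alike. The family is known for setting up territories in the neural tube, heart, limb and kidney, and loss of human IRX5 causes a syndrome with craniofacial defects. Ezh2 is the catalytic subunit of Polycomb repressive complex PRC2, which places a repressive methyl mark on histone H3 at many silent developmental genes. Hoxa2 is the Hox gene that gives the crest of PA2 its identity and is normally silent in Md.

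In GRCm38, the build of the table, the IrxA cluster covered 1.31 Mb of chromosome 13, with Irx1 at chr13:71957921-71963723 on the minus strand, Irx2 at chr13:72628820-72634196 and Irx4 at chr13:73260497-73269620, both on the plus strand. The IrxB cluster covered 0.882 Mb of chromosome 8, with Irx3 at chr8:91798511-91802067 on the minus strand, Irx5 at chr8:92357796-92361454 and Irx6 at chr8:92674289-92680956, both on the plus strand. All 6 are annotated as protein coding. A stretch of 99 bases in the homeobox could be aligned without gaps in the GENCODE M21 transcripts of all 6 genes, and 86 of its 99 positions were identical in every member. It is printed 5′ to 3′ on the coding strand because it shows how close the members are and where short reads could be shared. Capitals mark a base that differs from the base most members carry, and where 2 bases were equally common, the base of Irx1 is in lower case.
Irx1: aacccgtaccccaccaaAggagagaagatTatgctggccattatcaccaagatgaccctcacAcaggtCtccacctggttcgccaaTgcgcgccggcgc
Irx2: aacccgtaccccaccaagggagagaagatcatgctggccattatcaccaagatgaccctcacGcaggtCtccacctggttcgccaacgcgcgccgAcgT
Irx4: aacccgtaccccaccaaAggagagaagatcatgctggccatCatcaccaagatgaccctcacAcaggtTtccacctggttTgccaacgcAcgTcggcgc
Irx3: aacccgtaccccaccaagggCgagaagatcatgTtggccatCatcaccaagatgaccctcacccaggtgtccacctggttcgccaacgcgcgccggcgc
Irx5: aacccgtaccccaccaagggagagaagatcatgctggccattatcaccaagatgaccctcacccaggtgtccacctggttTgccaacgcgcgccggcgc
Irx6: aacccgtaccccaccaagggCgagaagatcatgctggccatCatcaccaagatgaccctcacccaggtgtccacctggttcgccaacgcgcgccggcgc
Over these bases the IrxB members were 95.96% to 98.99% identical to each other, the IrxA members 90.91% to 93.94%, and members of different clusters 91.92% to 94.95%. The pairs at the same position had 91.92% for Irx1 and Irx3, 94.95% for Irx2 and Irx5 and 92.93% for Irx4 and Irx6. In this short stretch they were thus less alike than the IrxB members. Irx3 and Irx6, which differ at a single position here, shared their longest identical run of 88 bases, Irx2 and Irx5 a run of 65 bases, and Irx3 and Irx5 a run of 50 bases. Reads were 50 bases long, so a read from such a run cannot be assigned to a single gene. Of the distinct 50-base words in its transcripts, Irx3 shared 40 of 2762, Irx6 39 of 3368, Irx5 17 of 3078 and Irx2 16 of 3324 with another member, and Irx1 and Irx4 shared 0. How the authors' counting treated such reads is not given in the sources used here, so a small part of the Irx6 and Irx3 counts is uncertain.

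RefSeq promoter sequence (GRCm38.p6, 250 bases before to 50 bases after the annotated start) was at hand for 3 of the 6 members, Irx2, Irx3 and Irx4. The Irx2 and Irx3 promoters are shown as 1 from each cluster, both genes being among those called in Ezh2cKO crest, and CpG-rich promoters are frequent sites of Polycomb binding. Capitals mark CG dinucleotides, and each sequence is on the strand of its gene.
Irx2, chr13:72628570-72628869, plus strand: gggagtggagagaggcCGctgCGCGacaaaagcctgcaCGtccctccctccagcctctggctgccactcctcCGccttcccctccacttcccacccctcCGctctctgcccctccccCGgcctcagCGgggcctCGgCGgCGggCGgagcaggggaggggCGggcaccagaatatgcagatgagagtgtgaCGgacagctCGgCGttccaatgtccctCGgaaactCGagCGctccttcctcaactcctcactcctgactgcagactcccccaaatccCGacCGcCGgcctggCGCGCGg
Irx3, chr8:91801605-91801904, minus strand: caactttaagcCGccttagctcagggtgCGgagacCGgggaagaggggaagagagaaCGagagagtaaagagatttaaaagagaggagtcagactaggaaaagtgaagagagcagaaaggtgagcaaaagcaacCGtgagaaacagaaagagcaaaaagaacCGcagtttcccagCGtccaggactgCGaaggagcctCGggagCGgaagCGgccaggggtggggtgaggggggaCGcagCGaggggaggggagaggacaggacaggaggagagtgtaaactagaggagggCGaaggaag
The Irx3 stretch lies wholly inside the Irx3 gene of the count table (chr8:91798511-91802067), so RefSeq and the table place its start differently. Its values hold for the RefSeq start only. The Irx2 promoter held 25 CG dinucleotides, more than 81.6% of 32841 mouse promoters of the same length, and the Irx3 promoter held 14, more than 63.7%. The Irx4 promoter held 31, more than 89.4%, against a median of 7 over all promoters. The Iroquois palindrome ACANNTGT, which is the same on both strands, occurred in none of the 3 promoters and in 7.38% of all promoters. The Hox and Pbx word TGATNNAT, sought on both strands, also occurred in none of the 3 and in 8.85% of all.

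Levels are given in CPM, counts per 1e6 counts of a library after TMM scaling, and differences as log2 fold changes with their standard error (SE) from 1 edgeR quasi-likelihood model of all 47 libraries. A gene is called changed at a Benjamini-Hochberg adjusted p under 0.05 over the 20560 genes that passed the filter on low counts. All 6 members passed it, but Irx4 did not when the E8.5 libraries were left out of the filter, so its difference from E8.5 is given without a test. The tests of Irx4 between other groups were possible only with the E8.5 libraries in the filter. Libraries held 18.8 to 49.8 M counts (M for 1e6), with a median of 30.6 M. Over all libraries the family received 24903 counts for Irx5, 17741 for Irx2, 8031 for Irx3, 7441 for Irx1, 712 for Irx6 and 520 for Irx4. Ezh2 itself stood at 113 to 157 CPM in the 12 Ezh2cKO libraries against 350 to 405 CPM over the 11 wild-type libraries of that stage. Hoxa2 stood at 92.8 to 124 CPM in the 3 HoxA2OE libraries of Md, against 0.248 to 0.297 CPM in wild-type Md. In PA2 at E11.5 it stood at 176 to 195 CPM in Hoxa2TempMut and 268 to 269 CPM in Control libraries, and at 183 to 199 CPM in wild-type libraries. Which part of Hoxa2 was deleted is not given in the sources used here, so its remaining counts do not check that label. The HoxA2OE libraries stood apart in other ways, with 28.5% to 45.9% of counts from mitochondrial genes, against 19.9% to 24.0% in wild-type Md, and TMM factors of 0.514 to 0.775, against 1.00 to 1.08.

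**Figure D1:**
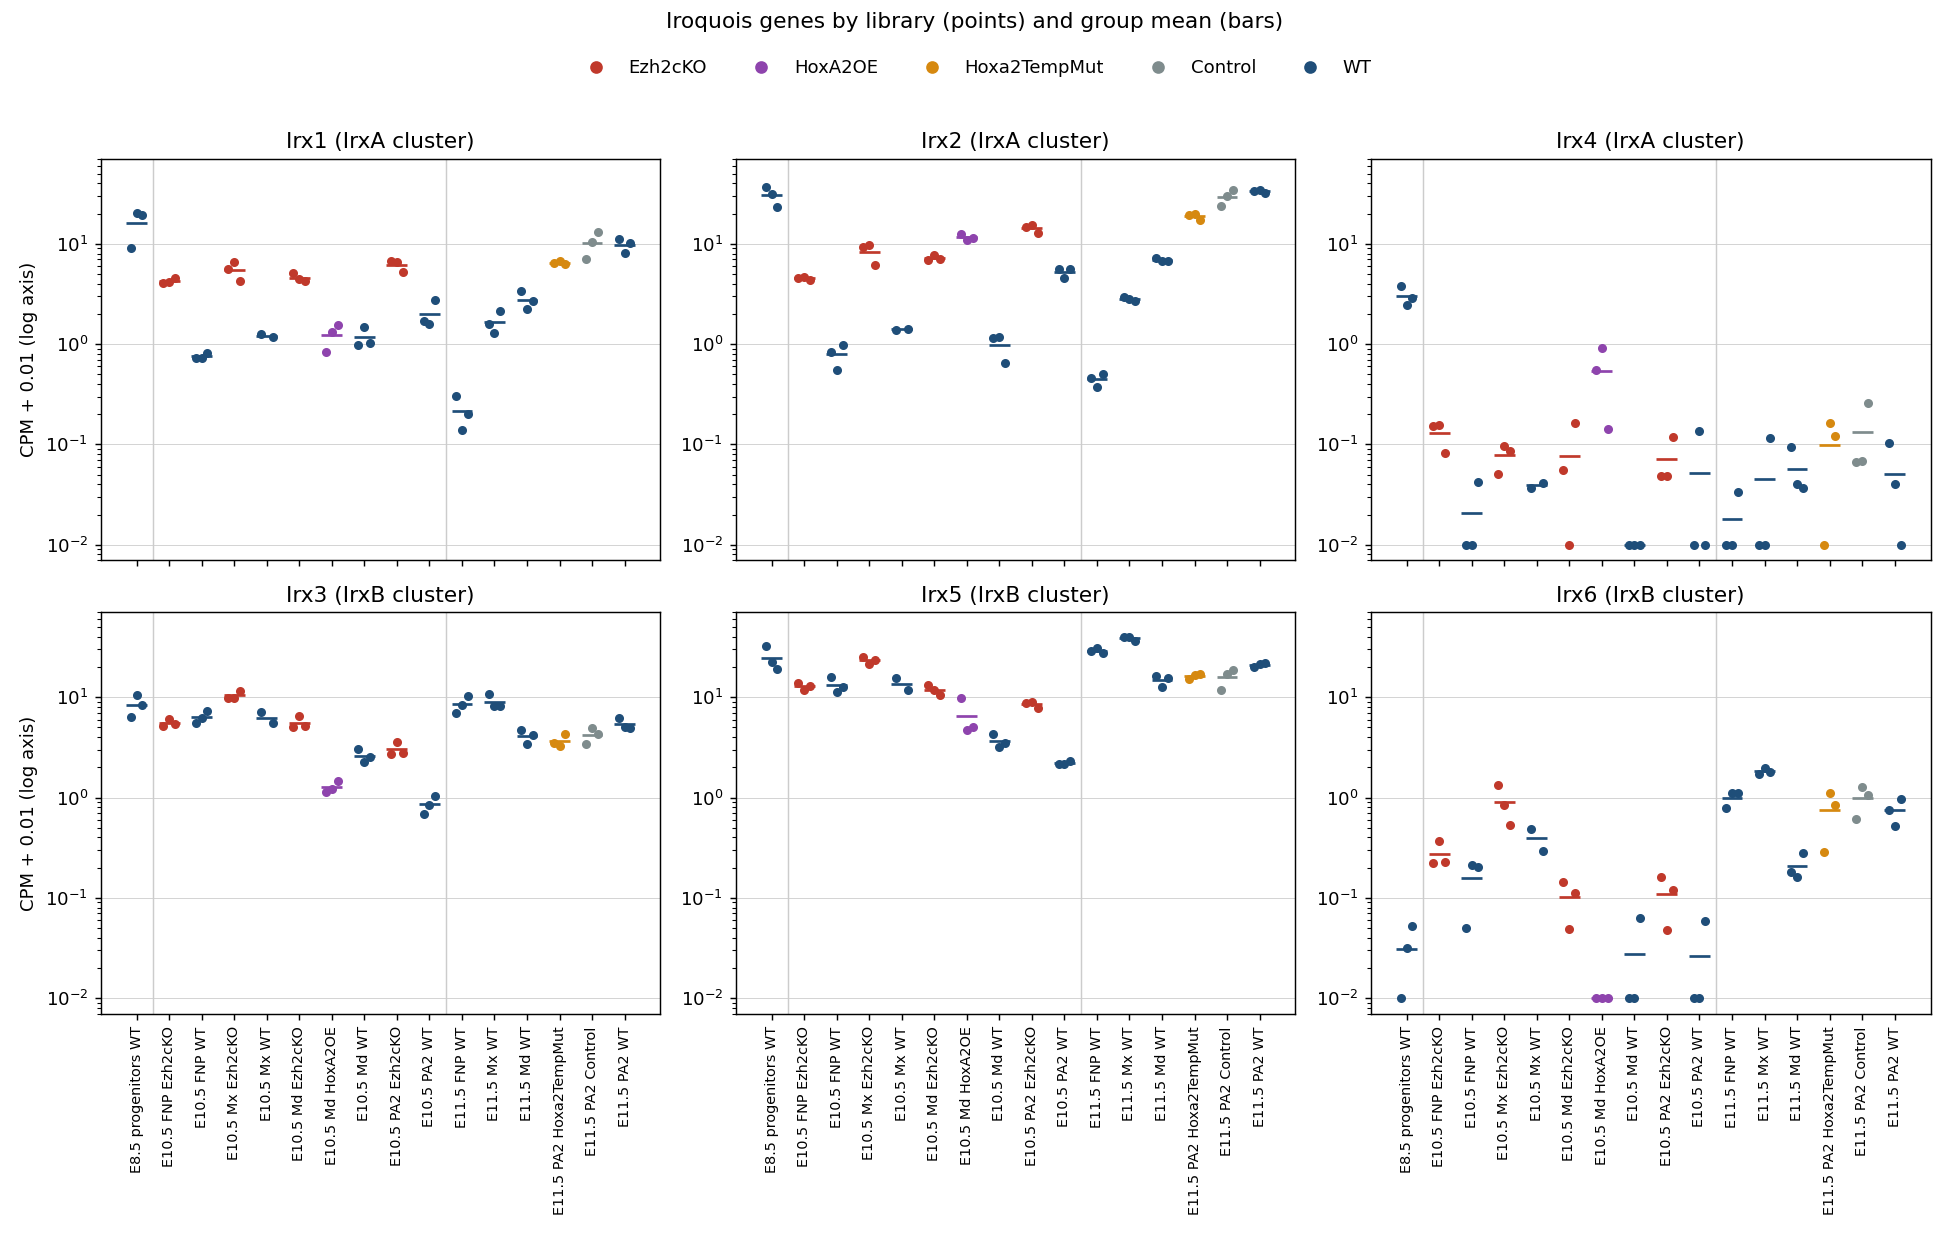
Level of each Iroquois gene in every library (points) and the group mean (bars), as CPM + 0.01 on a log axis, with groups in order of stage from left to right and colours for genotype. Irx1 and Irx2 are highest at E8.5 and in PA2 at E11.5, Irx3 and Irx5 are at 0.679 CPM or more in every library, and Irx4 exceeds 1 CPM only in the 3 E8.5 libraries.

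Crest progenitors at E8.5 carried the highest Irx1 and Irx4 levels of the 16 groups, and Irx1, Irx2, Irx3 and Irx5 were lower in the mean of the 4 wild-type subpopulations at E10.5. Irx4, best known as a ventricular regulator of the heart, had 6 counts in 11 libraries at E10.5 and 405 counts in 3 libraries at E8.5. Its level averaged 0.0197 CPM at E10.5, against 3.76, 2.44 and 2.87 CPM in the 3 E8.5 libraries. Irx2 fell by 4.30 on the log2 scale, and Irx1 fell by 3.75.
Irx2 had 0.547 to 5.61 CPM in the 11 E10.5 libraries and 36.7, 31.4 and 23.5 CPM at E8.5 (log2 fold change -4.30 ± 0.11 SE, edgeR adjusted p = 5.17e-30). Irx1 had 0.712 to 2.75 CPM at E10.5 and 9.02, 20.2 and 19.5 CPM at E8.5 (log2 fold change -3.75 ± 0.18 SE, edgeR adjusted p = 8.58e-22). For both genes all E8.5 libraries lay above all E10.5 libraries, although replicate 1 of E8.5 had less than the other two for Irx1.
The IrxB pair had smaller fold changes. Irx5, which patterns neural tube, heart and craniofacial tissue, had 2.13 to 16.1 CPM at E10.5, against 32.7, 22.6 and 19.0 CPM at E8.5 (log2 fold change -1.997 ± 0.14 SE, edgeR adjusted p = 1.72e-16). Irx3, its closest partner in the neural tube, had 0.679 to 7.36 CPM at E10.5 and 6.40, 10.46 and 8.30 CPM at E8.5 (log2 fold change -1.45 ± 0.14 SE, edgeR adjusted p = 2.53e-12), with overlapping libraries. Irx6 had 42 counts over the 11 E10.5 libraries and 3 counts at E8.5, 6.59 times as much relative to library size (95% counting interval 2.11 to 33.2), and it was not called (edgeR adjusted p = 0.226).
This contrast calls most genes: 68.4% of all tested genes changed and 36.3% fell, so 4 falling members are to be read against that share. Summed over 12 cranial crest markers, the level was 1262 to 1892 CPM at E10.5 and 330 to 426 CPM at E8.5, with 8 higher and 4 lower at E10.5. Marker levels of neural tube progenitors, epithelium, endothelium and erythroid cells were instead higher at E8.5. Summed over 8 neural tube progenitor markers, the level was 22.0 to 62.4 CPM in the E10.5 wild-type libraries and 333 to 415 CPM at E8.5, with Sox3 at 0 in Mx, Md and PA2, Nkx6-1 at 0 in Mx and Hes5 at 0 in Md, and all 8 fell. Summed over 10 epithelial markers it was 2.61 to 17.4 CPM at E10.5 and 162 to 192 CPM at E8.5, with Krt14 at 0 in all 4 subpopulations, Krt5 at 0 in Mx and Cldn4 at 0 in PA2, and 9 of the 9 tested fell. Summed over 8 endothelial markers, none of them at 0, it was 2.31 to 7.98 CPM at E10.5 and 139 to 156 CPM at E8.5, and all 8 fell. Mitochondrial genes took 19.9% to 33.6% of counts at E10.5 and 11.46% to 18.7% at E8.5. The part of these markers and of the mitochondrial share in the Iroquois levels was not tested. In such bulk samples, fewer cells of a type and less RNA per cell cannot be told apart.

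At E10.5 the clusters were highest in opposite territories. Irx3 and Irx5 were highest in FNP and Mx, and Irx1 and Irx2 in PA2.
Irx5 had 16.1, 11.4 and 12.7 CPM in FNP, 15.5 and 11.8 CPM in Mx, 4.29, 3.22 and 3.50 CPM in Md and 2.13, 2.14 and 2.31 CPM in PA2. Irx3 had 5.54, 6.18 and 7.36 CPM in FNP, 7.07 and 5.47 CPM in Mx, 3.01, 2.27 and 2.55 CPM in Md and 0.679, 0.839 and 1.03 CPM in PA2. For both genes every FNP and Mx library exceeded every Md library, and every Md library exceeded every PA2 library. Irx2 was instead highest in PA2, with 5.61, 4.57 and 5.55 CPM in PA2, 1.15, 1.16 and 0.637 CPM in Md, 1.38 and 1.42 CPM in Mx and 0.830, 0.547 and 0.977 CPM in FNP. Irx1 had 1.67, 1.59 and 2.75 CPM in PA2, 0.976, 1.49 and 1.01 CPM in Md, 1.25 and 1.16 CPM in Mx and 0.712, 0.718 and 0.814 CPM in FNP. The PA2 libraries lay above all others for both IrxA genes, and replicate 3 of PA2 held the most Irx1.
Each subpopulation was tested against the mean of the other 3. In PA2, Irx2 (log2 fold change 2.34 ± 0.15 SE, edgeR adjusted p = 5.48e-16) and Irx1 (log2 fold change 0.96 ± 0.25 SE, edgeR adjusted p = 0.00776) were higher, where 5.59% of all genes were higher. Irx3 (log2 fold change -2.47 ± 0.21 SE, edgeR adjusted p = 2.31e-12) and Irx5 (log2 fold change -1.998 ± 0.20 SE, edgeR adjusted p = 2.23e-10) were lower, where 4.94% of all genes were lower. FNP was the mirror image, with Irx5 (1.48 ± 0.16) and Irx3 (1.40 ± 0.15) higher and Irx2 (-1.30 ± 0.20) and Irx1 (-0.91 ± 0.29) lower, in a contrast that called 27.6% of all genes. The FNP libraries also stood apart in their mitochondrial counts, at 28.2% to 33.6%, against 19.9% to 24.0% in the other 3 subpopulations, and the part of this in the FNP values was not tested. In Mx, Irx5 (1.52 ± 0.17) and Irx3 (1.38 ± 0.17) were higher, where 4.37% of all genes were. Irx6, the least studied member, was also higher in Mx, with 18 and 9 counts, against 0 to 6 counts in each of the other 9 libraries (log2 fold change 3.34 ± 0.64 SE, edgeR adjusted p = 2.14e-04). In Md, Irx5 (-1.004 ± 0.19) and Irx2 (-0.84 ± 0.20) were lower, where 3.68% of all genes were. Of these calls, Irx2 in Md was lost without Md replicate 3 (edgeR adjusted p = 0.0831), Irx1 in PA2 without PA2 replicate 3 (0.186), and Irx1 in FNP without FNP replicate 1 (0.0556) or 2 (0.0600).
Mx also stood apart in nerve markers. Summed over 10 markers of neurons and glia, Mx had 171 to 199 CPM, against 14.4 to 18.9 CPM in the other 3 subpopulations, with no marker at 0 in any of the 4. Their part in the Irx3, Irx5 and Irx6 levels of Mx was not tested.

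At E11.5 Irx1 and Irx2 were again highest in PA2 and lowest in FNP. Irx2 had 34.0, 34.1 and 31.9 CPM in PA2, 7.19, 6.65 and 6.77 CPM in Md, 2.97, 2.81 and 2.70 CPM in Mx and 0.453, 0.361 and 0.497 CPM in FNP. Irx1 had 11.1, 8.09 and 10.2 CPM in PA2, 3.37, 2.22 and 2.71 CPM in Md, 1.58, 1.27 and 2.14 CPM in Mx and 0.293, 0.129 and 0.189 CPM in FNP. The 4 subpopulations did not overlap for either gene, and the order PA2, Md, Mx, FNP was the same for both.
In PA2, Irx2 (log2 fold change 4.02 ± 0.12 SE, edgeR adjusted p = 7.85e-28) and Irx1 (log2 fold change 3.32 ± 0.20 SE, edgeR adjusted p = 2.14e-17) were higher than in the mean of the other 3, where 9.41% of all genes were higher. In FNP, Irx2 (-4.29 ± 0.19) and Irx1 (-4.10 ± 0.32) were lower, where 12% of all genes were lower.
Irx5 had 20.2, 21.5 and 21.9 CPM in PA2, 16.4, 12.5 and 15.4 CPM in Md, 39.8, 40.3 and 36.7 CPM in Mx and 28.6, 31.1 and 27.5 CPM in FNP. Irx3 had 6.21, 5.00 and 4.92 CPM in PA2, 4.67, 3.42 and 4.17 CPM in Md, 10.7, 8.22 and 8.23 CPM in Mx and 7.002, 8.34 and 10.2 CPM in FNP. The IrxB genes thus remained highest in Mx and FNP, but their lowest subpopulation was now Md in place of PA2.
In Mx, Irx5 (0.90 ± 0.14), Irx3 (0.66 ± 0.14) and Irx6 (1.78 ± 0.29) were higher, where 5.84% of all genes were, and Irx2 (-0.72 ± 0.15) was lower, where 5.5% of all genes were. In Md, Irx6 (-2.45 ± 0.40), Irx5 (-0.97 ± 0.15) and Irx3 (-0.87 ± 0.15) were lower and Irx2 (0.99 ± 0.13) and Irx1 (0.89 ± 0.23) higher, in a contrast that called 7.1% of all genes. In FNP, Irx3 was higher (log2 fold change 0.55 ± 0.14 SE, edgeR adjusted p = 0.00244), where 12.6% of all genes were, a call lost without FNP replicate 3 (0.105), as Irx1 in Md was without Md replicate 1 (0.120). For Irx3 and Irx5 in PA2 the differences from the other 3 had adjusted p-values of 0.110 and 0.223. Nerve markers also stood apart at E11.5. The 10 markers of neurons and glia summed on average to 64.9 CPM in FNP and 67.2 CPM in Mx. The sums were 21.5 CPM in Md, where Neurog1 was at 0, and 16.6 CPM in PA2. The part of these markers in the Irx3, Irx5 and Irx6 levels of FNP and Mx was not tested.
Between the neighbouring arches themselves, PA2 against Md, Irx2 was higher in PA2 at E10.5 (2.39 ± 0.21) and E11.5 (2.28 ± 0.15), where 2.72% and 4.1% of all genes were. Irx3 was lower in PA2 at E10.5 (log2 fold change -1.62 ± 0.25 SE, edgeR adjusted p = 7.61e-06), where 1.95% of all genes were lower, and its difference at E11.5 was 0.40 ± 0.18 with an edgeR adjusted p of 0.226. Irx1 (1.82 ± 0.24) and Irx6 (1.88 ± 0.47) were higher in PA2 at E11.5, Irx6 not without PA2 replicate 3 (edgeR adjusted p = 0.0533). Irx5 differed between the arches by -0.75 ± 0.24 at E10.5 and 0.52 ± 0.18 at E11.5 (edgeR adjusted p of 0.0705 and 0.0669), neither of them called, although both were in fits with other libraries or no filter.

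Between E10.5 and E11.5 the family rose in most places, with different sizes and, for Irx1 and Irx2, different directions of change between subpopulations. Averaged over the 4, Irx6 (3.40 ± 0.36), Irx5 (1.98 ± 0.10), Irx2 (1.41 ± 0.11), Irx3 (1.06 ± 0.10) and Irx1 (0.53 ± 0.18) were higher at E11.5, 5 of 6 members where 33.7% of all genes rose.
In PA2 the rise took in both clusters. Irx5 had 20.2, 21.5 and 21.9 CPM at E11.5, against 2.13, 2.14 and 2.31 CPM at E10.5 (log2 fold change 3.27 ± 0.22 SE, edgeR adjusted p = 2.00e-15). Irx2 had 34.0, 34.1 and 31.9 CPM, against 5.61, 4.57 and 5.55 CPM (log2 fold change 2.67 ± 0.16 SE, edgeR adjusted p = 7.18e-17). Irx3 (2.66 ± 0.23) and Irx1 (2.29 ± 0.26) rose similarly, and for each of these 4 genes the libraries of the stages lay apart. Irx6 had 71 counts in PA2 at E11.5 and 1 at E10.5, 48.9 times as much relative to library size (95% counting interval 8.49 to 1957). These are 5 of 6 members, where 21.3% of all genes rose.
Md showed the same 5 calls, with Irx2 (2.78 ± 0.20), Irx5 (2.01 ± 0.20), Irx1 (1.24 ± 0.29) and Irx3 (0.65 ± 0.20) higher, where 21.3% of all genes rose. Irx6 had 21 counts in Md at E11.5 and 1 at E10.5, 13.2 times as much relative to library size (95% counting interval 2.13 to 548). Without replicate 2 of wild-type Md at E10.5, 3 of the 5 calls in Md were left, and without replicate 1 of Md at E11.5 the Irx3 call was lost (edgeR adjusted p = 0.0510).
In Mx, Irx6 (2.23 ± 0.47), Irx5 (1.51 ± 0.21), Irx2 (1.01 ± 0.21) and Irx3 (0.53 ± 0.20) rose, where 20% of all genes did, and Irx1 had a difference of 0.45 ± 0.33 with an edgeR adjusted p of 0.290. The Irx3 call in Mx was lost without replicate 2 of Mx at E10.5 (0.352) or replicate 1 of Mx at E11.5 (0.152).
In FNP the clusters moved in opposite directions. Irx6 (2.68 ± 0.49), Irx5 (1.12 ± 0.18) and Irx3 (0.42 ± 0.17) rose, where 22.7% of all genes did. Irx1 fell to 0.293, 0.129 and 0.189 CPM at E11.5, against 0.712, 0.718 and 0.814 CPM at E10.5 (log2 fold change -1.87 ± 0.43 SE, edgeR adjusted p = 5.09e-04). Irx2 fell to 0.453, 0.361 and 0.497 CPM, against 0.830, 0.547 and 0.977 CPM (log2 fold change -0.84 ± 0.27 SE, edgeR adjusted p = 0.0108), where 20% of all genes fell. In E11.5 FNP the libraries held only 11, 5 and 8 counts of Irx1 and 17, 14 and 21 counts of Irx2. Of these 5 calls 3 were left in a fit of the FNP groups alone, and 3 without replicate 2 of E11.5 FNP. Irx3 also lost its call without replicate 3 of E11.5 FNP (edgeR adjusted p = 0.335) or replicate 1 (0.185) or 2 (0.113) of E10.5 FNP, and Irx2 without replicate 3 of E10.5 FNP (0.102).
A test of whether the stage effect differed between subpopulations called Irx2 (edgeR adjusted p = 1.40e-11), Irx1 (2.19e-07), Irx3 (3.28e-07) and Irx5 (1.20e-06), 4 of 6 members, where 15.6% of all genes were called. For Irx6 it gave an adjusted p of 0.236.
Markers and RNA composition moved with stage as well. Cranial crest markers summed to 2256 to 3003 CPM at E11.5 and 1262 to 1892 CPM at E10.5, with 7 of 12 higher and 4 lower. Endothelial markers summed to 5.03 to 23.1 CPM at E11.5 and 2.31 to 7.98 CPM at E10.5, with 5 of 8 higher and none at 0, and epithelial markers to 3.90 to 21.9 CPM and 2.61 to 17.4 CPM, with 5 of 9 higher and Krt14 at 0 in PA2 at E11.5. Markers of neurons and glia summed to 15.4 to 73.6 CPM at E11.5 and 14.4 to 199 CPM at E10.5. In the mean of the 4 subpopulations 7 of 10 were lower and 2 higher, with Neurog1 at 0 in Md at E11.5. Their sum went in opposite directions in FNP and Mx. In FNP it averaged 64.9 CPM at E11.5 and 15.8 CPM at E10.5, and in Mx 67.2 and 185 CPM. In Md it averaged 21.5 and 18.4 CPM, and in PA2 16.6 CPM at both stages. Erythroid markers summed to 26.4 to 78.5 CPM at E11.5 and 25.2 to 423 CPM at E10.5, with 5 of 6 lower and Hba-a1 and Hba-a2 at 0 in all groups. The mitochondrial share was 11.7% to 19.5% at E11.5 and 19.9% to 33.6% at E10.5, without overlap. Their part in the stage differences was not tested.

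**Figure D2:**
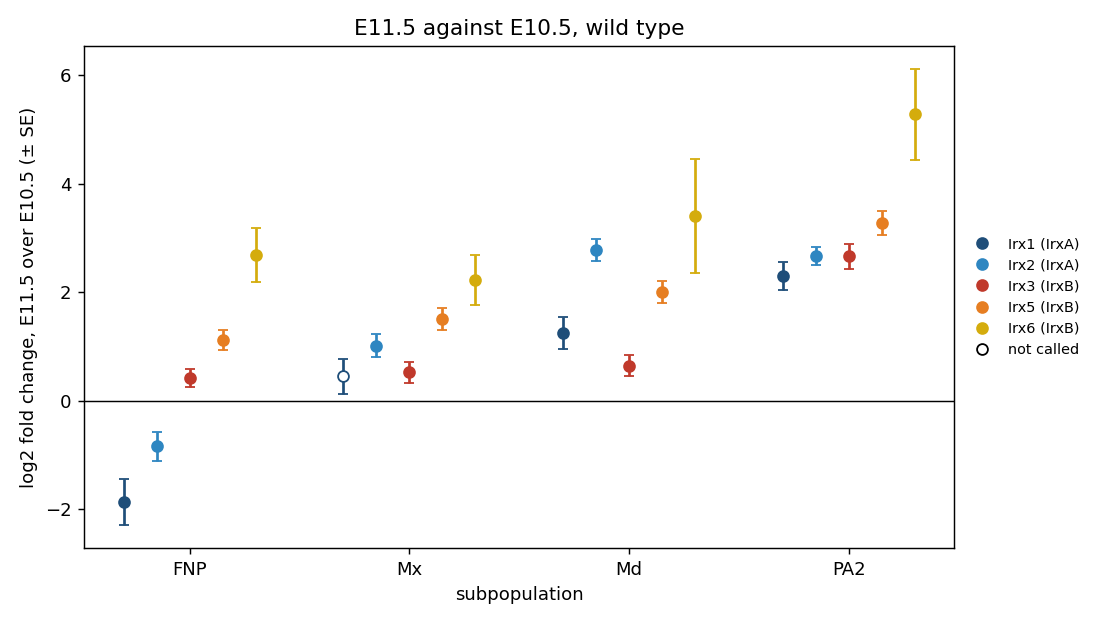
Log2 fold change of E11.5 over E10.5 with its SE for 5 Iroquois genes in each wild-type subpopulation, filled where called and open where not. In FNP the IrxA genes lie below 0 and the IrxB genes above it, and in PA2 all 5 lie above 2.

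In Ezh2cKO crest Irx1 and Irx2 were higher in every subpopulation, and Irx3 and Irx5 in Mx, Md and PA2. Averaged over the 4 subpopulations all 6 members were called higher, where 16.1% of all genes were. Among them Irx4 passed the filter only through the E8.5 libraries. The Ezh2cKO, HoxA2OE and stage comparisons share the wild-type libraries of E10.5.
Irx2 had 4.53, 4.63 and 4.37 CPM in Ezh2cKO FNP, against 0.830, 0.547 and 0.977 CPM in wild-type FNP (log2 fold change 2.52 ± 0.20 SE, edgeR adjusted p = 3.45e-12). Every Ezh2cKO library of FNP thus exceeded every wild-type one. In Mx it had 9.23, 9.62 and 6.18 CPM in Ezh2cKO, against 1.38 and 1.42 CPM in wild type (log2 fold change 2.57 ± 0.21 SE). In Md it had 6.90, 7.74 and 7.03 CPM in Ezh2cKO, against 1.15, 1.16 and 0.637 CPM in wild type (log2 fold change 2.85 ± 0.20 SE). PA2, where wild-type Irx2 was already highest, had 14.7, 15.2 and 12.8 CPM in Ezh2cKO, against 5.61, 4.57 and 5.55 CPM in wild type (log2 fold change 1.45 ± 0.16 SE). In all 4 subpopulations the libraries of the genotypes lay apart.
Irx1 showed the same pattern. It had 4.06, 4.12 and 4.52 CPM in Ezh2cKO FNP, against 0.712, 0.718 and 0.814 CPM in wild type (log2 fold change 2.49 ± 0.30 SE). It had 5.57, 6.56 and 4.30 CPM in Ezh2cKO Mx, against 1.25 and 1.16 CPM in wild type (log2 fold change 2.172 ± 0.31 SE), and 5.05, 4.41 and 4.21 CPM in Ezh2cKO Md, against 0.976, 1.49 and 1.01 CPM in wild type (log2 fold change 1.96 ± 0.29 SE). In PA2 it had 6.67, 6.51 and 5.26 CPM in Ezh2cKO and 1.67, 1.59 and 2.75 CPM in wild type (log2 fold change 1.62 ± 0.27 SE). All 12 Ezh2cKO libraries, at 4.06 to 6.67 CPM, exceeded all 11 wild-type libraries, at 0.712 to 2.75 CPM (mean log2 fold change 2.06 ± 0.15 SE, edgeR adjusted p = 7.47e-15).
The IrxB genes differed by territory. In FNP, where they were already high, Irx5 had 13.8, 11.9 and 13.0 CPM in Ezh2cKO and 16.1, 11.4 and 12.7 CPM in wild type (log2 fold change -0.05 ± 0.18 SE, edgeR adjusted p = 0.940), and Irx3 had 5.13, 6.07 and 5.46 CPM and 5.54, 6.18 and 7.36 CPM (log2 fold change -0.20 ± 0.18 SE, edgeR adjusted p = 0.639), with overlapping libraries for both. In Mx, Irx5 had 25.3, 21.2 and 23.5 CPM in Ezh2cKO and 15.5 and 11.8 CPM in wild type (log2 fold change 0.77 ± 0.20 SE, edgeR adjusted p = 0.00978). Irx3 had 9.85, 9.93 and 11.49 CPM in Ezh2cKO Mx and 7.07 and 5.47 CPM in wild type (log2 fold change 0.73 ± 0.20 SE, edgeR adjusted p = 0.0113). These Mx values rest on 2 wild-type libraries, and without replicate 2 of them the Mx calls fell to 2 of 6. In Md, Irx5 had 13.4, 11.9 and 10.46 CPM in Ezh2cKO, against 4.29, 3.22 and 3.50 CPM in wild type (log2 fold change 1.70 ± 0.21 SE), and Irx3 had 5.05, 6.46 and 5.13 CPM, against 3.01, 2.27 and 2.55 CPM (log2 fold change 1.09 ± 0.20 SE). PA2, the lowest wild-type territory of the IrxB genes, had 8.83, 9.02 and 7.76 CPM of Irx5 in Ezh2cKO, against 2.13, 2.14 and 2.31 CPM in wild type (log2 fold change 1.96 ± 0.22 SE, edgeR adjusted p = 1.94e-08). Irx3 had 2.69, 3.54 and 2.79 CPM in Ezh2cKO PA2, against 0.679, 0.839 and 1.03 CPM in wild type (log2 fold change 1.82 ± 0.24 SE, edgeR adjusted p = 4.39e-07). In Md and PA2 the libraries of the genotypes lay apart for both genes.
By subpopulation, 2 of 6 members were higher in FNP and 4 of 6 in each of Mx, Md and PA2, where 4.97%, 6.85%, 6.69% and 6.64% of all genes were, and no member was lower.
The weak members moved within few counts. Irx4 had 24 counts in the 12 Ezh2cKO libraries and 6 in the 11 wild-type libraries (mean log2 fold change 2.13 ± 0.82 SE, edgeR adjusted p = 0.0442), and this call was lost in 16 of the 23 fits that left out 1 of these libraries (highest edgeR adjusted p = 0.165, without Ezh2cKO Md replicate 3). Irx6 had 101 counts in Ezh2cKO and 42 in wild type (mean log2 fold change 1.68 ± 0.48 SE, edgeR adjusted p = 0.00665), most of them in Mx with 32, 19 and 14 counts in Ezh2cKO and 18 and 9 in wild type. In no single subpopulation was either of them called, the smallest edgeR adjusted p-values being 0.125 for Irx6 in Mx and 0.227 for Irx4 in FNP.

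**Figure D3:**
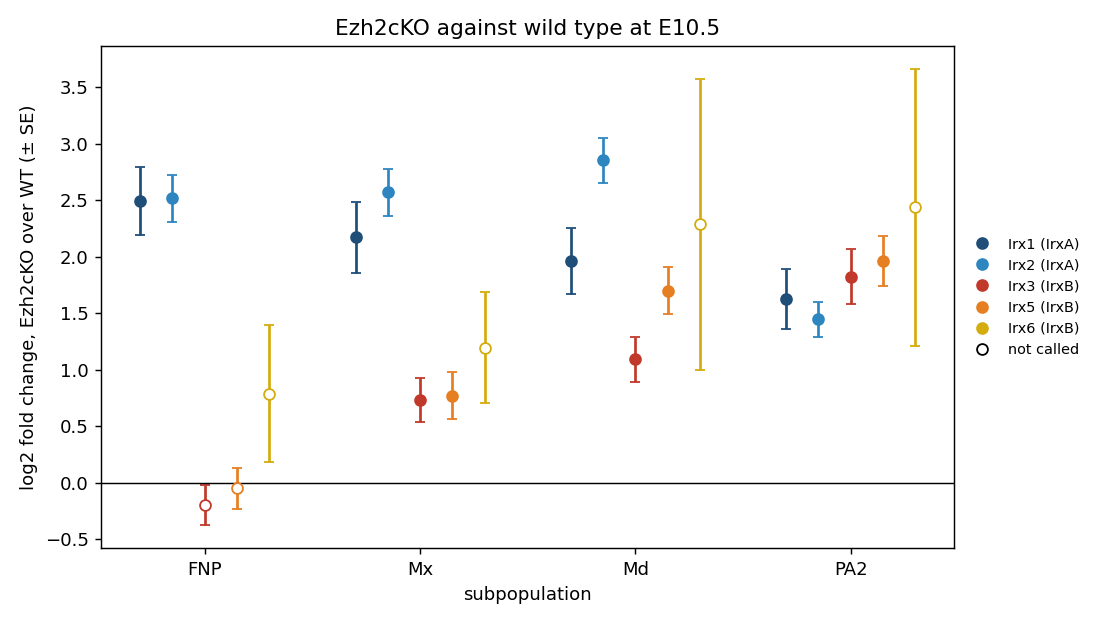
Log2 fold change of Ezh2cKO over wild type with its SE for 5 Iroquois genes in each subpopulation at E10.5, filled where called and open where not. Irx1 and Irx2 lie at 1.45 or above in all 4 subpopulations, whereas Irx3 and Irx5 lie at -0.20 and -0.05 in FNP and at 1.82 and 1.96 in PA2.

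A test of whether the Ezh2cKO effect differed between subpopulations called Irx5 (edgeR adjusted p = 1.01e-05), Irx3 (8.94e-05) and Irx2 (9.58e-04), 3 of 6 members where 1.63% of all genes were called, and gave an adjusted p of 0.998 for Irx1. Territorial differences within the mutant were measured the same way as in wild type. In Ezh2cKO Mx, Irx3 (1.20 ± 0.14), Irx5 (1.09 ± 0.14) and Irx6 (2.70 ± 0.40) were higher than in the mean of the other 3, where 4.42% of all genes were. In Ezh2cKO PA2, Irx2 (1.14 ± 0.12) was higher and Irx3 (-1.19 ± 0.16) and Irx5 (-0.84 ± 0.16) were lower, in a contrast that called 8.17% of all genes. Ezh2cKO FNP had lower Irx2 (-1.08 ± 0.14), where 13.5% of all genes were lower, and in Ezh2cKO Md edgeR called 0 of 6 members, where 5.54% of all genes were called. There DESeq2 also called 0, and 1 member had an unadjusted p under 0.05.
The mitochondrial share lay apart between the genotypes in the same 3 subpopulations in which Irx3 and Irx5 were called. It was 24.9% to 28.3% in Ezh2cKO and 21.8% to 22.6% in wild type in Mx, 25.5% to 31.0% in Ezh2cKO and 19.9% to 24.0% in wild type in Md, and 26.7% to 29.9% in Ezh2cKO and 22.2% to 23.6% in wild type in PA2. In FNP the shares overlapped, at 29.3% to 32.4% in Ezh2cKO and 28.2% to 33.6% in wild type. Marker lists moved with the genotype too. Cranial crest markers summed to 1150 to 1770 CPM in Ezh2cKO and 1262 to 1892 CPM in wild type, with 2 of 12 called higher and 1 lower. Epithelial markers summed to 9.04 to 15.9 CPM in the 12 Ezh2cKO libraries and 2.61 to 17.4 CPM in wild type, with 5 of 9 called higher and Krt14 at 0 in all 8 groups. In Mx they summed to 9.04 to 9.85 CPM in Ezh2cKO and 2.61 to 3.70 CPM in wild type. In Md they had 9.54 to 12.8 and 3.87 to 4.04 CPM, and in PA2 12.4 to 14.0 and 4.08 to 5.16 CPM. The epithelial sums thus lay apart in the same 3 subpopulations. In FNP they overlapped, at 14.1 to 15.9 CPM in Ezh2cKO and 8.07 to 17.4 CPM in wild type. Neural tube progenitor markers summed to 31.1 to 58.6 CPM in Ezh2cKO and 22.0 to 62.4 CPM in wild type, with 4 of 8 called higher and 1 lower, and Sox3 at 0 in Ezh2cKO FNP and Md and in wild-type Mx, Md and PA2. Their sums lay apart and higher in Ezh2cKO in FNP, Md and PA2, and overlapped in Mx. Markers of neurons and glia summed to 24.1 to 295 CPM in Ezh2cKO and 14.4 to 199 CPM in wild type, with 5 of 10 called higher and Neurog1 at 0 in Ezh2cKO Md. In FNP they summed to 24.1 to 29.9 CPM in Ezh2cKO and 15.1 to 16.2 CPM in wild type. In Md they had 27.7 to 31.4 and 17.8 to 18.9 CPM, and in PA2 27.1 to 30.7 and 14.4 to 18.7 CPM. In Mx they overlapped, at 113 to 295 CPM in Ezh2cKO and 171 to 199 CPM in wild type. Markers of cranial mesoderm and muscle summed to 3.83 to 10.3 CPM in Ezh2cKO and 2.65 to 15.5 CPM in wild type, with 3 of 8 called higher. Of these, Myod1 was at 0 in Ezh2cKO FNP and wild-type Md and PA2, Myog in Ezh2cKO PA2 and wild-type Md and PA2, Tcf21 in wild-type FNP, Mx and PA2 and Myf5 in Ezh2cKO PA2. Erythroid markers summed to 19.5 to 337 CPM in Ezh2cKO and 25.2 to 423 CPM in wild type, with 4 of 6 called lower. The part of these markers and of the mitochondrial share in the Iroquois changes was not tested.

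Along the clusters, the share of neighbouring genes called higher in Ezh2cKO crest was near that of all genes. Inside or within 500 kb of the IrxA cluster 9 of 13 annotated neighbours passed the filter, and 1 was called higher and 5 lower in the mean of the 4 subpopulations. Near the IrxB cluster 10 of 17 passed, and 1 was called higher and 0 lower, where 16.1% of all genes were higher and 14.7% lower. The neighbour that rose at IrxA was Gm20554, annotated as an antisense transcript that starts 256 bases from Irx2 on the opposite strand, with 3.40 CPM in Ezh2cKO and 0.769 CPM in wild type on average (log2 fold change 2.49 ± 0.13 SE, edgeR adjusted p = 6.12e-19). The neighbour that rose at IrxB was D230002A01Rik, which overlaps Irx3 on the opposite strand (log2 fold change 0.62 ± 0.10 SE, edgeR adjusted p = 3.83e-06). The libraries are unstranded, so reads of Irx3 and D230002A01Rik in the overlap cannot be told apart. In contrast 4933436C20Rik, 1.7 kb from Irx5, had 10.8 CPM in Ezh2cKO and 10.9 CPM in wild type (log2 fold change -0.11 ± 0.09 SE, edgeR adjusted p = 0.390). Fto, the RNA demethylase gene beside Irx3, had a log2 fold change of -0.09 ± 0.04 and was not called. The called falls at IrxA lay beyond Irx4, where Gm10263 had -0.48 ± 0.13, Ndufs6 had -0.18 ± 0.07 and Slc12a7 -0.17 ± 0.04. The Ndufs6 call was lost in 14 of the 23 fits that left out 1 library (highest edgeR adjusted p = 0.164).

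**Figure D4:**
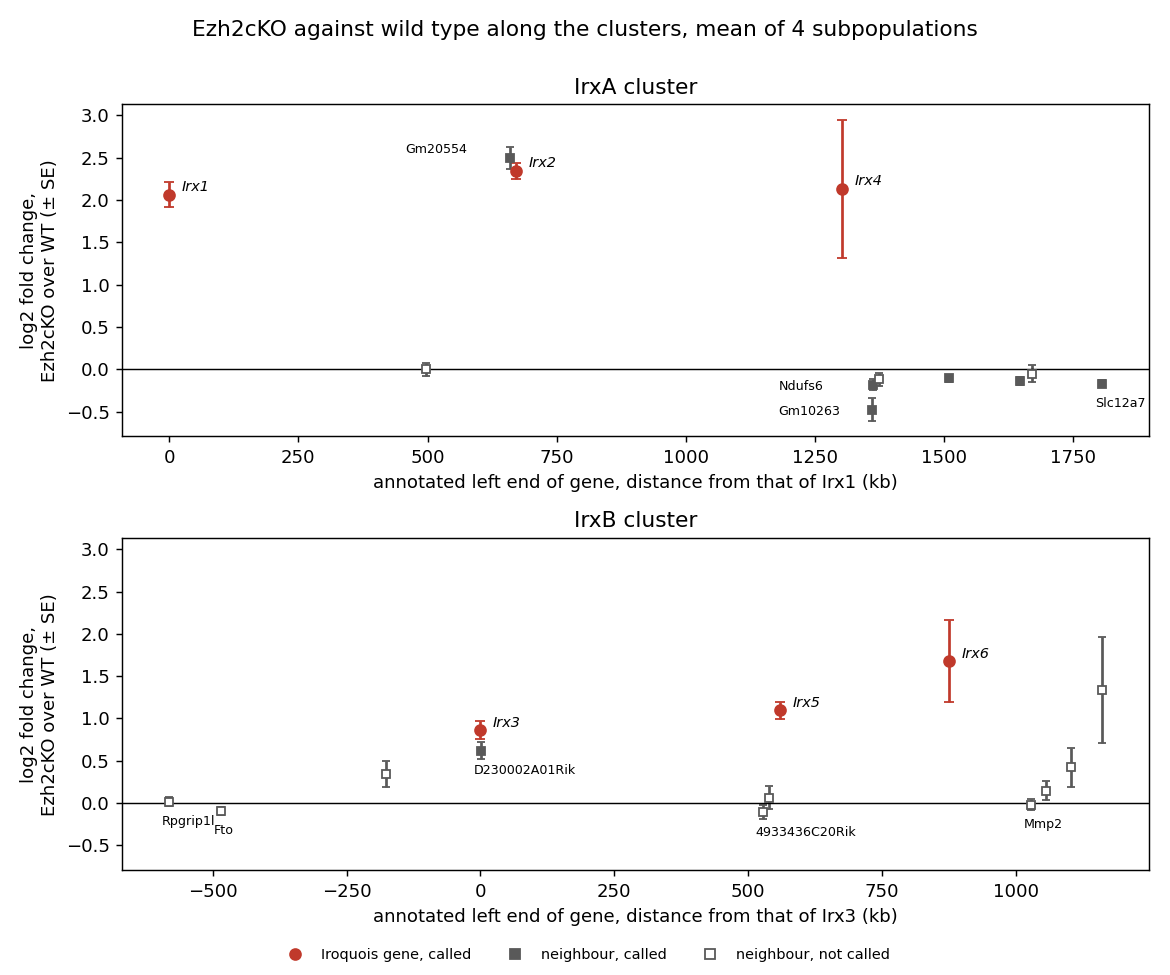
Log2 fold change of Ezh2cKO over wild type (mean of 4 subpopulations, ± SE) for Iroquois genes (red circles) and their neighbours (grey squares, open where not called) by distance of their annotated left ends from that of Irx1 or Irx3 in kb. The 6 Iroquois genes lie at 0.86 or above, Gm20554 at 2.49 beside Irx2, and 4933436C20Rik at -0.11 beside Irx5.

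Between HoxA2OE and wild-type Md 4 of the 6 genes differed. Irx2 had 12.5, 11.0 and 11.4 CPM in HoxA2OE Md, against 1.15, 1.16 and 0.637 CPM in wild-type Md (log2 fold change 3.53 ± 0.20 SE, edgeR adjusted p = 5.51e-17). Irx4 had 13, 32 and 5 counts in HoxA2OE Md and 0 in all 3 wild-type libraries, at least 11.4-fold higher when the wild-type group is set at the floor of 3 counts (edgeR adjusted p = 8.42e-05). Irx4 could be tested here only because the filter held the E8.5 libraries. Its cluster mate Irx1 was not called, at 0.826, 1.30 and 1.52 CPM in HoxA2OE and 0.976, 1.49 and 1.01 CPM in wild type (log2 fold change 0.10 ± 0.32 SE, edgeR adjusted p = 0.826).
The IrxB genes went in opposite directions. Irx5 rose to 9.71, 4.72 and 5.07 CPM in HoxA2OE Md, against 4.29, 3.22 and 3.50 CPM in wild type (log2 fold change 0.80 ± 0.21 SE, edgeR adjusted p = 0.00148), and Irx3 fell to 1.12, 1.22 and 1.44 CPM, against 3.01, 2.27 and 2.55 CPM (log2 fold change -1.04 ± 0.22 SE, edgeR adjusted p = 1.23e-04). Replicate 1 of HoxA2OE held about as much Irx5 as the other two together. Irx6 had 0 counts in HoxA2OE and 1 in wild type.
For comparison, wild-type PA2, which carries Hoxa2, had 5.61, 4.57 and 5.55 CPM of Irx2, 0.679, 0.839 and 1.03 CPM of Irx3 and 3 counts of Irx4.
Most of the tested genes, 54.8%, were called between these groups, 27.1% higher and 27.8% lower, so a share of 4 in 6 members is near the background. In a fit of the 2 groups alone 2 of the 6 were called. There Irx5 was not called (edgeR adjusted p = 0.0863), and Irx4 did not pass the filter and was not tested. Without HoxA2OE replicate 1 Irx5 was also not called (edgeR adjusted p = 0.107). Erythroid markers summed to 10.4 to 13.5 CPM in HoxA2OE and 219 to 284 CPM in wild-type Md, with 6 of 6 lower, and endothelial markers to 8.88 to 10.4 CPM and 3.91 to 4.83 CPM, with 3 of 8 higher and none at 0. Cranial crest markers summed to 2165 to 2923 CPM in HoxA2OE and 1645 to 1695 CPM in wild-type Md, with 5 of 12 higher and 1 lower. These, the share of mitochondrial counts and the TMM factors given above moved with HoxA2OE, and their part in these values was not tested.

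Between Hoxa2TempMut and Control PA2 a single member was called. Irx2 had 19.3, 19.8 and 17.2 CPM in Hoxa2TempMut, against 24.0, 30.2 and 34.0 CPM in Control libraries (log2 fold change -0.65 ± 0.14 SE, edgeR adjusted p = 0.0126), where 0.365% of all genes fell. Without Control replicate 2 or 3, or without Hoxa2TempMut replicate 3, the call was lost (edgeR adjusted p of 0.0727, 0.191 and 0.119). Irx1 had 6.37, 6.76 and 6.29 CPM in Hoxa2TempMut and 6.98, 10.3 and 13.2 CPM in Control, with a similar difference that was not called (log2 fold change -0.65 ± 0.23 SE, edgeR adjusted p = 0.344). Control replicate 1 had the lowest Irx1 and Irx2 of the 3 Control libraries.
No IrxB gene was called, with 0.02 ± 0.18 for Irx5, -0.19 ± 0.18 for Irx3 and -0.40 ± 0.39 for Irx6 and overlapping libraries. Irx5 had 15.1, 16.6 and 16.9 CPM in Hoxa2TempMut and 11.9, 17.1 and 18.7 CPM in Control. Irx3 had 3.52, 3.24 and 4.29 CPM in Hoxa2TempMut and 3.43, 4.89 and 4.34 CPM in Control, and Irx4 had 9 counts and 13 counts.
Control and wild-type PA2 at E11.5 are a pair in which 22.1% of all genes were called. Among the members edgeR called 0 of 6, with 0 members called by DESeq2 and 1 at an unadjusted p under 0.05. Irx5 had a difference of -0.41 ± 0.18 and Irx3 of -0.35 ± 0.18, with edgeR adjusted p-values of 0.0935 and 0.169, and for both the libraries of the groups lay apart.

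To compare the clusters on the same scale, counts were divided by exonic length (RPKM) and summed within each cluster and library. Library size cancels from the ratio of IrxB to IrxA, but low counts still make it less certain. The log2 ratio was 1.29, 1.18, 1.19 in Ezh2cKO FNP libraries, against 3.97, 3.91, 3.62 in wild-type FNP. It was 1.48, 1.14, 1.92 in Ezh2cKO Mx and 3.25, 2.90 in wild type, 0.80, 0.79, 0.65 in Ezh2cKO Md and 1.92, 1.14, 1.95 in wild type, and -0.64, -0.55, -0.53 in Ezh2cKO PA2 and -1.10, -0.83, -1.08 in wild type. IrxA genes thus held more of the family's RNA in Ezh2cKO FNP, Mx and Md, and less in Ezh2cKO PA2, with the libraries of the genotypes apart in each.
The group means differed by -2.61 for FNP, -1.56 for Mx, -0.92 for Md and 0.43 for PA2 (Ezh2cKO minus wild type).
At E8.5 the ratio was -0.05, -0.53, -0.60. At E11.5 it was 5.81, 6.63, 6.01 for FNP, 3.74, 3.87, 3.41 for Mx, 1.23, 1.13, 1.31 for Md and -0.47, -0.34, -0.33 for PA2, so FNP was the most IrxB-biased territory at both stages and PA2 held more IrxA than IrxB in each of its wild-type libraries. In FNP at E11.5 the IrxA sum rested on 24 counts of Irx1, 52 of Irx2 and 1 of Irx4 over the 3 libraries.
E11.5 minus E10.5, the means differed by 2.32 for FNP, 0.59 for Mx, -0.45 for Md and 0.62 for PA2, with overlapping libraries in Md alone.
In HoxA2OE Md it was 0.03, -0.82, -0.66, against 1.92, 1.14, 1.95 in wild-type Md. In Hoxa2TempMut PA2 it was -0.17, -0.09, 0.15, against -0.69, -0.55, -0.73 in Control. The groups lay apart in both. These ratios are sums over the chosen members and are given as descriptions, with no test.
By gene, Irx5 held 24.9% to 77.2% of the family's RPKM in the 16 groups on average and was the largest part in 11 of them, and Irx2 was the largest in the other 5, PA2 of E10.5 in wild type and Ezh2cKO, PA2 of E11.5 in wild type and Control, and HoxA2OE Md.

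**Figure D5:**
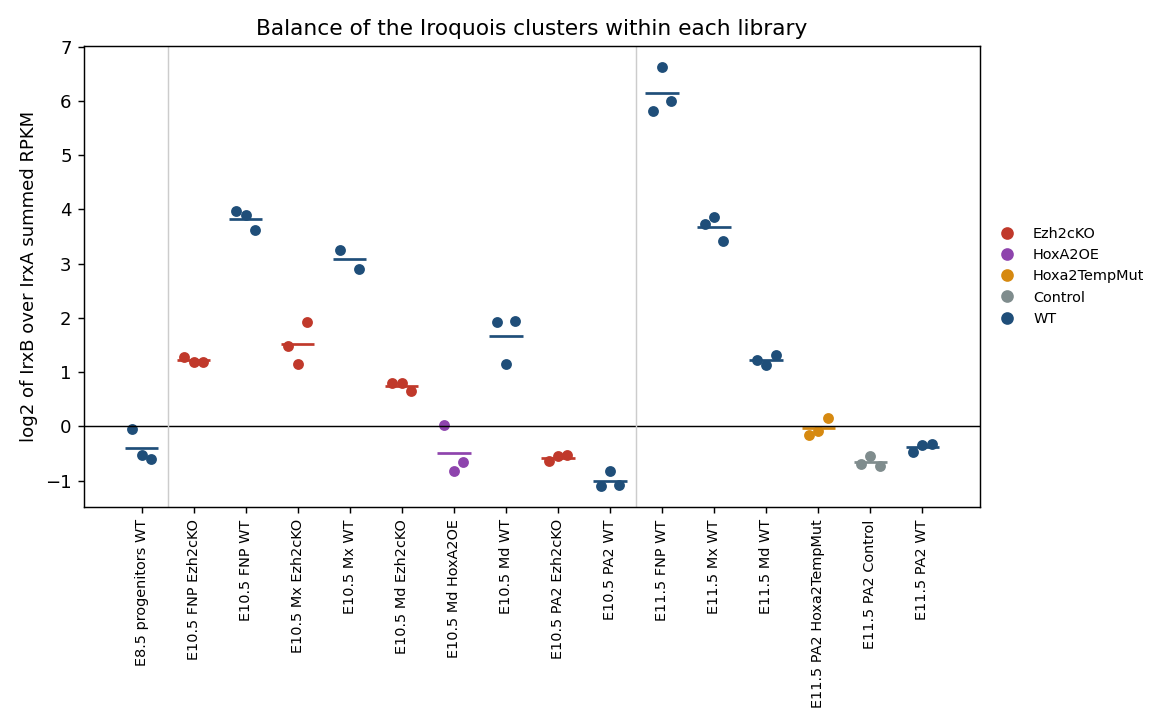
Log2 ratio of the summed RPKM of the IrxB genes to that of the IrxA genes in each library (points) with group means (bars), groups in order of stage. Wild-type FNP at E11.5 lies between 5.81 and 6.63, and all wild-type PA2 libraries lie below 0.

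Leaving Irx4 aside, members of a cluster varied together over the groups more than members of different clusters. Over the 16 group means of log2 CPM, Pearson's r was 0.90 between Irx1 and Irx2, 0.89 between Irx3 and Irx5, 0.76 between Irx5 and Irx6 and 0.63 between Irx3 and Irx6. Irx4 passed the filter only through the E8.5 libraries, its highest group. It had r = 0.55 with Irx2 and 0.49 with Irx1, and 0.56 and 0.30 over the 15 groups without E8.5. Between members of different clusters, Irx4 included, r ran from -0.37 to 0.15. These are descriptions over group means, and Irx3 and Irx6 share sequence. The genes whose group means were most like those of Irx1 were Ppm1e, P2rx6 and Catsperg1 (r of 0.91, 0.90 and 0.89). For Irx2 they were Prune2, Gkap1 and Lemd1 (0.91, 0.90 and 0.89), for Irx3 Bmp7, Col15a1 and Rprm (0.89, 0.86 and 0.86), and for Irx5 Dysf, Apold1 and Trim2 (0.91, 0.90 and 0.90). For Irx6 they were Cdh9, Angpt1 and Gfod1 (0.91, 0.90 and 0.90), and for Irx4 Fhl1, Shh and Tpp1 (0.95, 0.94 and 0.93), where the E8.5 group alone sets most of the range.

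Ordered by mean level, Irx1 ran from E8.5 progenitors through Control and wild-type PA2 of E11.5, Hoxa2TempMut PA2 and the Ezh2cKO groups of PA2, Mx, Md and FNP to wild-type Md of E11.5, and ended with wild-type FNP of E10.5 and E11.5. Neighbours in this order overlapped except below wild-type PA2 of E11.5, below Ezh2cKO FNP, below wild-type Md of E10.5 and between the FNP groups. Irx2 began with wild-type PA2 of E11.5, E8.5 progenitors and Control PA2, which overlapped, followed by Hoxa2TempMut PA2, Ezh2cKO PA2 and HoxA2OE Md, each apart from the next, and ended with wild-type FNP of E11.5.
Irx5 began with wild-type Mx of E11.5, apart from wild-type FNP of E11.5, and ended with HoxA2OE Md, wild-type Md and wild-type PA2 of E10.5, each apart from the next. Irx3 varied less. Its first 9 groups, from Ezh2cKO Mx down to wild-type PA2 of E11.5, overlapped each with the next, and wild-type Md, HoxA2OE Md and wild-type PA2 of E10.5 came last, each apart from the next. Irx6 was highest in wild-type Mx of E11.5, apart from all others, and Irx4 in E8.5 progenitors, with HoxA2OE Md next.

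Among the 12 TALE relatives of the family (Meis, Pbx, Pknox, Tgif and Mkx genes), Meis1, a cofactor of Hox proteins, had 386 CPM in PA2 and 54.0 CPM in the other 3 at E10.5 (log2 fold change 3.12 ± 0.10 SE), and Meis2 had 779 and 231 CPM (log2 fold change 2.05 ± 0.08 SE). In all, 4 of 12 were higher in PA2 and 2 lower at E10.5, and 7 were higher and 1 lower at E11.5. Of all genes, 5.59% were higher and 4.94% lower in PA2 at the earlier stage, and 9.41% were higher and 8.27% lower at the later stage. In Ezh2cKO, 3 of 12 rose, Meis1 (1.03 ± 0.06), Mkx (0.48 ± 0.08) and Meis2 (0.32 ± 0.05), and 2 fell, where 16.1% of all genes rose and 14.7% fell. In HoxA2OE Md 5 rose and 4 fell, where 27.1% of all genes rose and 27.8% fell, with Meis1 at 1.19 ± 0.12 and Pbx3 at 0.99 ± 0.10. In Hoxa2TempMut Meis2 fell (log2 fold change -0.60 ± 0.10 SE, edgeR adjusted p = 1.96e-04) and Pknox2 rose (0.58 ± 0.10).
Of 7 neural tube domain factors, all 7 fell between E8.5 and E10.5, among them Nkx6-1 (-9.79 ± 0.33) and Olig2 (-5.91 ± 0.45). In that comparison 36.3% of all genes fell. In Ezh2cKO 3 of 7 rose, where 16.1% of all genes did. These were Nkx6-1 with 0.868 CPM in Ezh2cKO and 0.0347 CPM in wild type, Nkx2-2 with 0.0780 and 0.00823 CPM, and Pax6 (0.32 ± 0.06). Without Ezh2cKO Md replicate 1 the Nkx2-2 call was lost, which left 2 of 7, and it was lost with DESeq2 too (adjusted p = 0.0784). Of 8 hedgehog pathway genes, 2 rose and 1 fell in Ezh2cKO, near the share of all genes, and 5 of 8 were lower in PA2 at E11.5, where 8.27% of all genes were, with the effector Gli1 at -1.35 ± 0.16.
Human IRX5 is known to act with GATA3 and TRPS1 and to repress CXCL12, and these genes with the receptor Cxcr4 were examined as a list of 4. At E10.5 Gata3 had 2.07 CPM in PA2 and 19.3 CPM in the other 3 (log2 fold change -3.09 ± 0.22 SE), and Cxcl12 had 371 and 180.1 CPM (log2 fold change 1.08 ± 0.06 SE). At E11.5 Gata3 was again lower in PA2 (-4.59 ± 0.29) and Cxcl12 higher (1.41 ± 0.06). In Ezh2cKO, Gata3 (0.60 ± 0.11) and Cxcr4 (0.74 ± 0.19) rose and Trps1 (-0.25 ± 0.04) fell. In HoxA2OE Md, Cxcl12 (1.10 ± 0.08), Cxcr4 (1.69 ± 0.43) and Trps1 (0.58 ± 0.09) rose. Of 13 PRC2 and PRC1 components, 5 rose in Ezh2cKO, among them Bmi1 (1.45 ± 0.06) and Cbx7 (1.17 ± 0.14), and 3 fell, one of them Ezh2 itself, where 16.1% of all genes rose and 14.7% fell.
Across these lists the median log2 fold change in Ezh2cKO was 0.07 for TALE relatives, 0.06 for hedgehog genes, 0.70 for neural tube factors, 0.32 for the IRX5 list and 0.02 for Polycomb components, against 1.87 for the 6 Iroquois genes and -0.02 for all tested genes. The Iroquois median takes in the low-count Irx4 and Irx6. Of these, Irx4 passed the filter only through the E8.5 libraries and lost its call in 16 of 23 fits without 1 library.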

How the data were processed

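Cranial neural crest cells were dissected, dissociated with trypsin and sorted, and their RNA was made into unstranded ScriptSeq v2 libraries, pooled 3 at a time and read as single 50-base reads on an Illumina HiSeq, per the labels' protocols. The authors deposited whole-number read counts per gene with gene coordinates, not normalized. The submitters' processing notes name bcl2fastq 2.17 and the GRCm38/mm10 build, and neither they nor the labels give the aligner or counting settings. Of the columns, 22 repeat another under the same name with identical values, and each library was used once.

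Counts were scaled by TMM and fitted with edgeR 4.0.16 (R 4.3.3) in 1 quasi-likelihood model with 16 group means and 31 residual degrees of freedom, after a filter on low counts (minimum count 10, minimum total 15) that left 20560 genes. Comparisons are contrasts of this model, the 2 tests of a difference between subpopulations are F tests, and p-values were adjusted by Benjamini-Hochberg over all tested genes of a comparison. The fit was tried on simulated counts of 1 comparison, Ezh2cKO against wild type in Md, with changes placed only in well-counted genes. Changes in low-count genes, the model of all libraries and the other contrasts were not simulated. DESeq2 1.42.0, its size factors in edgeR, no filter, only the groups compared, the replicate number as a block and leaving out each library were tried as alternatives, and a fit without the E8.5 and HoxA2OE libraries was added after seeing the data. The members, gene lists and marker lists were chosen with earlier results of these data known. Neighbours were all genes within 500 kb of a cluster, and from each list up to 4 called genes with the largest changes were named, some of which are not reported here. Counting intervals (exact, 95%) and the floor of 3 counts cover counting error only. Homeobox bases were read from GENCODE M21 transcripts and promoters from RefSeq.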

Additional observations from a re-analysis of the deposited data

Results flagged for a closer look

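The effect of stage on 4 members differed between the 4 wild-type subpopulations by a test of that difference. The edgeR adjusted p was 1.40e-11 for Irx2, 2.19e-07 for Irx1, 3.28e-07 for Irx3 and 1.20e-06 for Irx5. Irx1 and Irx2 were called lower at E11.5 in FNP and higher in Md and PA2, and Irx3 and Irx5 had their largest rise in PA2.

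The effect of Ezh2cKO differed between subpopulations for 3 members, with edgeR adjusted p-values of 1.01e-05 for Irx5, 8.94e-05 for Irx3 and 9.58e-04 for Irx2. Irx3 and Irx5 were called higher in Mx, Md and PA2 and had no call in FNP, whereas Irx2 was higher in all 4 and had its smallest fold change in PA2. Groups held 2 or 3 libraries, too few for a test of single libraries.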

How the results depend on the processing

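Counts of called Iroquois genes stayed within 1.5 times in all 30 comparisons with the DESeq2 test, with its size factors in edgeR and with the replicate block, and scaling moved the median of all genes by less than 0.1 on the log2 scale. No low-count filter, only the groups compared, and leaving out the E8.5 and HoxA2OE libraries each gave 1 call in Control against wild-type PA2, where 0 were called, and the gene was Irx5 (edgeR adjusted p of 0.0475, 0.0187 and 0.0101). With only the groups compared, the calls were 3 in place of 5 for E11.5 against E10.5 in FNP, 2 in place of 1 for FNP against the other 3 Ezh2cKO subpopulations, and 2 in place of 4 for HoxA2OE. For HoxA2OE, Irx5 lost its call (edgeR adjusted p = 0.0863) and Irx4 failed the filter and was not tested. The cause of the other changes was not tested. Leaving out 1 library gave 1 to 2 calls for Md against the other 3 wild-type subpopulations at E10.5, 3 to 5 for the stage comparison in FNP and in Md, 2 to 4 for Ezh2cKO in Mx and 0 to 1 for Hoxa2TempMut. The lone Mx library left in such a fit is assumed to vary like the other groups. Of uncalled values, Irx5 in Ezh2cKO FNP ran from -0.153 to 0.10, Irx1 in HoxA2OE from -0.022 to 0.329 and Irx5 in Hoxa2TempMut from -0.148 to 0.159 over these fits, so their signs are not settled. Irx5 between PA2 and Md, uncalled at both stages, was called without the low-count filter (edgeR adjusted p of 0.0278 at E10.5 and 0.0255 at E11.5), without the E8.5 and HoxA2OE libraries (0.01002 and 0.00357), with only the groups compared (0.0121 and 0.00203) and, at E10.5, with DESeq2 (adjusted p = 0.0466). The E11.5 rise of Irx3 in FNP lost its call with DESeq2 size factors (edgeR adjusted p = 0.0516) and without the filter (0.0642), and that in Mx without the filter (0.0510). The log2 ratio of IrxB to IrxA was refitted for 4 differences, the Ezh2cKO mean, the stage mean, HoxA2OE and Hoxa2TempMut, and none of these changed sign; the differences within single subpopulations were not refitted.

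Replicate numbers did not pair the samples: of 57 pairs of groups, 1 had every correlation of same-numbered libraries over 0.1, and single correlations ran from -0.121 to 0.297. With the replicate block, 4 in place of 3 members were called for PA2 against Md at E11.5, where Irx5 was gained (0.530, edgeR adjusted p = 0.0407), and 5 in place of 6 for Ezh2cKO in the mean, where Irx4 was lost (2.134, edgeR adjusted p = 0.0506).

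Depth limits Irx4 and Irx6 most, with 520 and 712 counts over all libraries. In FNP at E11.5 it also limits Irx1 and Irx2, with 24 and 52 counts over the group. Groups of 2 or 3 libraries limit the rest, and uncalled differences are not shown to be absent.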
